A study of Mus musculus with 6 samples.

Results

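Trim63, Trim54, Trim55, Fbxo32, Fbxo30, Fbxo40, Foxo1, Foxo3, Foxo4 and Mstn, the muscle ubiquitin ligases of atrophy with the FoxO factors and myostatin, were followed in sham and tail-suspended mouse hearts. The 10 genes were taken by name, as every non-control probe whose gene name on the array was one of them, which gave 16 of 55681 probes. All mice were male C57BL/6. Tail-suspension lifts the hindlimbs off the floor by the tail and is used to simulate microgravity. The tail-suspension group (3 samples) was suspended from 10 weeks of age for 28 days, and the sham group (3 samples) was kept in the same room and fed alike without suspension. The labels also give 11 weeks as the age for all 6 samples, which does not match the other numbers, and the study's methods state a different age again. Total cardiac RNA of each sample was hybridised to its own 1-colour array. Nothing beyond the replicate numbers says that the 3 samples of a group came from separate animals, so p-values measure the spread between these samples, and "heart" below stands for 1 sample.

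MuRF1 (Trim63), MuRF2 (Trim55) and MuRF3 (Trim54) are RING-finger ligases of the sarcomere that attach ubiquitin to contractile proteins and mark them for the proteasome. Atrogin-1 (Fbxo32), Fbxo30 and Fbxo40 are F-box proteins, the parts of SCF ligases that hold the substrate. In skeletal muscle, FoxO1 and FoxO3 switch on Trim63 and Fbxo32 when insulin, IGF1 and Akt no longer keep them out of the nucleus, and the glucocorticoid receptor can act with them on Trim63. Myostatin (Mstn) is a secreted factor of the TGF-beta family that limits muscle mass through activin receptors and Smad2 and Smad3. The arrays measured RNA only, and ligase activity and protein level were not analysed here.

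Across the 10 genes the response was uneven. Trim54 rose in tail-suspended hearts, and so did Foxo3 by its brighter probe, while its other probe was too dim to test. Trim63 and Trim55 did not pass the test, and Fbxo32 was higher on all 3 tail-suspension arrays but missed the threshold. Mstn was not well above background on any array. Of the 9 genes that could be tested, 2 were higher past the adjusted threshold (22.2% of them), 0 were lower and 7 did not pass (limma, Benjamini-Hochberg over all 28032 tested probes). Of all 17140 genes tested, each read from its brightest probe, 10.6% were higher and 10.5% lower. The 9 genes had a median log2 fold change of 0.10, against -0.01 over all tested genes. Heart tissue was measured whole, so fewer cells of a type and less RNA per cell cannot be told apart.

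The probes are shown first because several of these results depend on which stretch of a transcript was read. The array's coordinates are on mm9. The probes of the 3 MuRF genes below, on the plus strand of chr4:133881557-133881616, chr5:31438425-31438484 and chr3:19574481-19574540, carry 60 bases each and are printed whole in lower case.
Trim63 (A_55_P2106745): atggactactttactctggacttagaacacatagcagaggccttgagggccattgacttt
Trim54 (A_55_P2305319): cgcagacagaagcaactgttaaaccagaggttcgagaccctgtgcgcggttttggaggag
Trim55 (A_55_P2172058): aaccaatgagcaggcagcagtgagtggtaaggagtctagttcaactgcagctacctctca

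Fbxo30 had a probe whose 60 bases map over 3704 bases of the plus strand, chr10:11011329-11015032, so it spans a gap in the genome that the transcript does not have. Its sequence is given because it passed the test while the other Fbxo30 probe did not. Foxo1 had a probe at chr3:52150183-52150242 on the plus strand, which is the brighter of its pair.
Fbxo30 (A_66_P123804): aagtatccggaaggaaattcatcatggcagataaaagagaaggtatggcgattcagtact
Foxo1 (A_51_P138044): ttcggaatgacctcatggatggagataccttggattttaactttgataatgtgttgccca

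The other Fbxo30 probe holds a stretch of 19 bases, GATTCATATGTCCCATATA, in 2 copies, so part of its target is a repeat. The pair of Foxo4 probes start 8 bases apart and share 52 bases, which makes them nearly 1 measurement. The pair of Foxo3 probes start 61678 bases apart on chromosome 10, on the minus strand. The first was designed on the cDNA clone AK143198 and the second on the RefSeq transcript NM_019740. No mm9 annotation was used here, so exon, intron and UTR were not assigned. In RefSeq's table for GRCm38.p6, the Foxo3 gene is 94851 bases long.

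Levels below are log2 of the processed intensity relative to the 75th percentile of its array, in the order of replicates 1, 2 and 3. A level can be compared between arrays for 1 probe, not between probes. The scanner software flags each spot that stands well above background. A probe was called so on an array if at least 50% of its spots had the flag, and was tested if this held for the full set of arrays of either group. Of the 16 probes, 14 were tested and 13 were well above background on all 6 arrays.

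MuRF1 has a central place in the study of cardiac and skeletal atrophy, and its RNA did not pass the test. The brighter Trim63 probe, A_52_P517224, read 5.13, 5.15 and 5.16 in the sham hearts and 4.88, 5.52 and 4.83 in the tail-suspended hearts. The sham values lay within a narrow band, and the tail-suspended values fell on both sides of it, with replicate 2 above and replicates 1 and 3 below. Its log2 fold change was -0.07 ± 0.187 (SE, n = 3 per group, adjusted p = 0.806 by limma), with a 95% confidence interval from -0.52 to 0.38. The spread was 0.015 in sham hearts and 0.383 in tail-suspended hearts (SD).

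The second Trim63 probe, A_55_P2106745, starts 3468 bases away and shares no base with the first. It read 3.08, 3.29 and 3.35 in sham hearts and 2.37, 3.82 and 2.48 in tail-suspended hearts, so the same heart stood above the sham values and the same pair below them. Its log2 fold change was -0.35 ± 0.374 (adjusted p = 0.524, limma). The value of both probes rests on tail-suspension replicate 2. Without that array the brighter probe gave -0.29 (adjusted p = 0.0631) and the second gave -0.82, which passed (adjusted p = 0.0112), while without tail-suspension replicate 1 or 3 the brighter probe turned to 0.03 and 0.05.

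Trim54 rose. MuRF3 binds microtubules and works with MuRF1 in the turnover of sarcomeric myosin. Its probe read 5.28, 5.17 and 4.89 in sham hearts and 5.68, 5.83 and 5.74 in tail-suspended hearts, with no overlap. The mean was 5.11 ± 0.201 in sham and 5.75 ± 0.076 in tail-suspended hearts (SD, n = 3 each), a log2 fold change of 0.64 ± 0.122 or 1.56-fold (adjusted p = 0.0179, limma). The direction held under all 19 alternatives that gave a value. The call did not hold without sham replicate 2 (adjusted p = 0.0605) or tail-suspension replicate 3 (0.0591), with the methods' t-test once adjusted (0.0563, against 0.00673 unadjusted, as the methods use it), with no filter on dim probes (0.0626) or with a term for slide row (0.17).

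Trim55, whose product MuRF2 lies with titin in the M-band and moves between sarcomere and nucleus, overlapped between the groups. It read 0.81, 1.16 and 1.45 in sham hearts and 1.46, 1.05 and 1.20 in tail-suspended hearts. The log2 fold change was 0.10 ± 0.186 (adjusted p = 0.735, limma), and without sham replicate 1 it was -0.07 and without tail-suspension replicate 1 it was -0.02.

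**Figure D1:**
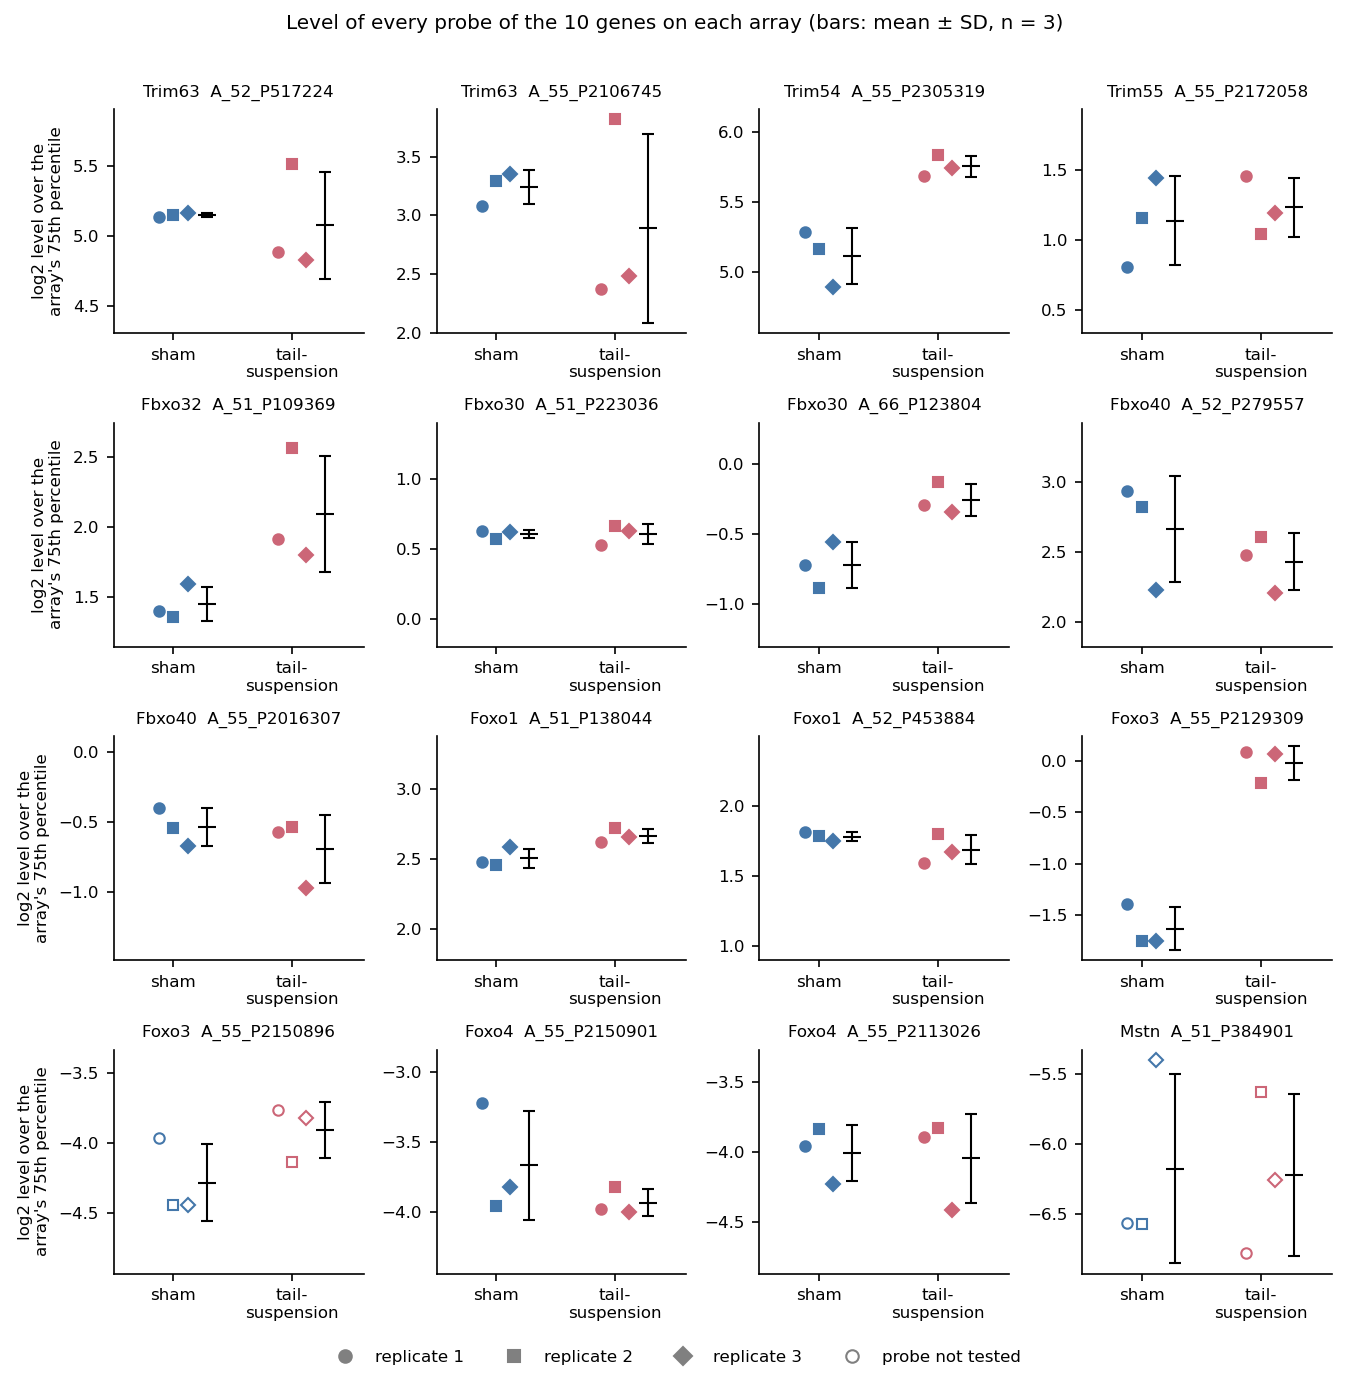
Log2 level of each of the 16 probes, relative to the 75th percentile of its array, on the 3 sham arrays (blue) and the 3 tail-suspension arrays (red). The markers are replicates, the bars are mean ± SD, open markers are the 2 probes that were not tested, and each panel has its own axis. Trim54, Fbxo32, the clone probe of Foxo3, the brighter Foxo1 probe and the Fbxo30 probe A_66_P123804 show separate groups. Tail-suspension replicate 2 is the highest point for both Trim63 probes, Trim54, Fbxo32, both Fbxo30 probes, the brighter Foxo1 probe and the Foxo4 probe A_55_P2113026.

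Fbxo32, the F-box protein that binds calcineurin and MyoD in muscle, was measured by 10 spots on each array. Its levels were 1.40, 1.36 and 1.59 in sham hearts and 1.92, 2.57 and 1.80 in tail-suspended hearts. Each tail-suspended heart was above each sham heart, and replicate 2 was the highest, as for Trim63. The log2 fold change was 0.64 ± 0.207 or 1.56-fold (95% confidence interval 0.15 to 1.14), with an adjusted p of 0.0706 by limma. The exact permutation p was 0.1 (two-sided), the smallest that 3 arrays against 3 can give.

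The repeated spots of an array share its labelling and hybridisation, so their spread shows the error between spots and not that between arrays. The coefficient of variation between spots of 1 array was 1.42% to 5.04%. The spots of the 3 sham arrays lay between 752.3 and 944.3 intensity units, those of tail-suspension replicates 1 and 3 between 1212 and 1333, and those of tail-suspension replicate 2 between 2128 and 2318. Without tail-suspension replicate 2 the log2 fold change was 0.41 (adjusted p = 0.0547). Fbxo32 passed under 3 of 19 alternatives, which were normexp background correction (adjusted p = 0.0316), an intensity trend with robust eBayes (0.0461) and array weights (0.0441).

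The probes of Fbxo30, a ligase under the control of BMP signalling in skeletal muscle, differed from each other. The brighter probe, which holds the repeat, read 0.62, 0.57 and 0.62 in sham hearts and 0.52, 0.66 and 0.63 in tail-suspended hearts. Its fold change was 1.00 (log2 95% confidence interval -0.20 to 0.20, adjusted p = 0.998, limma). The probe that spans 3704 bases read -0.72, -0.89 and -0.56 in sham hearts and -0.29, -0.13 and -0.35 in tail-suspended hearts, with no overlap. Its log2 fold change was 0.47 ± 0.116 (adjusted p = 0.0365, limma), and this call was lost under 10 of 18 alternatives, including each array left out except sham replicate 3 (adjusted p of 0.0691 to 0.117). Whether the pair read different transcripts was not tested.

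Fbxo40, which targets the insulin receptor substrate Irs1 in muscle, was lower on average by both probes, within the spread. The brighter probe read 2.93, 2.82 and 2.23 in sham hearts and 2.48, 2.61 and 2.21 in tail-suspended hearts, with a log2 fold change of -0.23 ± 0.206 (adjusted p = 0.446, limma). The other read -0.40, -0.54 and -0.67 in sham hearts and -0.57, -0.54 and -0.97 in tail-suspended hearts, a log2 fold change of -0.15 ± 0.146 (adjusted p = 0.471).

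Of the FoxO factors, Foxo3 changed by the probe of its cDNA clone. That probe read -1.39, -1.75 and -1.75 in sham hearts and 0.08, -0.21 and 0.06 in tail-suspended hearts. The mean rose from -1.63 ± 0.207 to -0.02 ± 0.165 (SD, n = 3 each), a log2 fold change of 1.61 ± 0.140 or 3.05-fold (adjusted p = 0.00236, limma). It passed under all 19 alternatives, with values from 1.18 to 1.73. The fitted fold change was the largest of the 14 probes tested.

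The Foxo3 probe of the RefSeq transcript was too dim to test. It was well above background on 1 sham array and 2 tail-suspension arrays, with intensities of 20.6, 14.7 and 13.8 in sham hearts and 25.0, 21.3 and 26.5 in tail-suspended hearts. Its levels were -3.97, -4.45 and -4.45 in sham hearts and -3.77, -4.14 and -3.82 in tail-suspended hearts, the lowest of each group being replicate 2. Tail-suspended values were higher on average, and the groups overlapped. The rise of Foxo3 therefore stands on the clone probe alone.

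Foxo1 moved little and its probes had opposite signs. The brighter probe read 2.48, 2.45 and 2.58 in sham hearts and 2.62, 2.72 and 2.65 in tail-suspended hearts. The groups did not overlap, and the log2 fold change of 0.16 ± 0.084 did not pass (adjusted p = 0.212, limma). By the methods' t-test the p was 0.0318 unadjusted, as the methods use it, and 0.115 once adjusted. The other probe, A_52_P453884, read 1.81, 1.78 and 1.74 in sham hearts and 1.59, 1.80 and 1.67 in tail-suspended hearts, with a log2 fold change of -0.09 ± 0.090 (adjusted p = 0.483). The 95% confidence intervals of the pair ran from -0.04 to 0.36 and from -0.31 to 0.12.

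Foxo4 was dim, with intensities between 16.1 and 34.4 on all arrays over both probes. Its log2 fold changes were -0.27 ± 0.195 for A_55_P2150901 (adjusted p = 0.357, limma) and -0.04 ± 0.185 for A_55_P2113026 (adjusted p = 0.896). The first read -3.23, -3.96 and -3.83 in sham hearts and -3.98, -3.82 and -4.00 in tail-suspended hearts, so 1 sham heart stood above the rest. Counting probes, 3 of the 14 tested member probes passed, against 20.4% of all tested probes. Counting groups that did not overlap, 4 of the 9 tested genes (Trim54, Fbxo32, Foxo1 and Foxo3) met it, against 46.4% of all tested genes, a share close to theirs.

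Mstn gave intensities of 3.40, 3.36 and 7.17 in sham hearts and 3.09, 7.64 and 4.90 in tail-suspended hearts. On 0 of the 6 arrays was it well above background, so no fold change was computed, and a difference was not detectable with this probe.

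**Figure D2:**
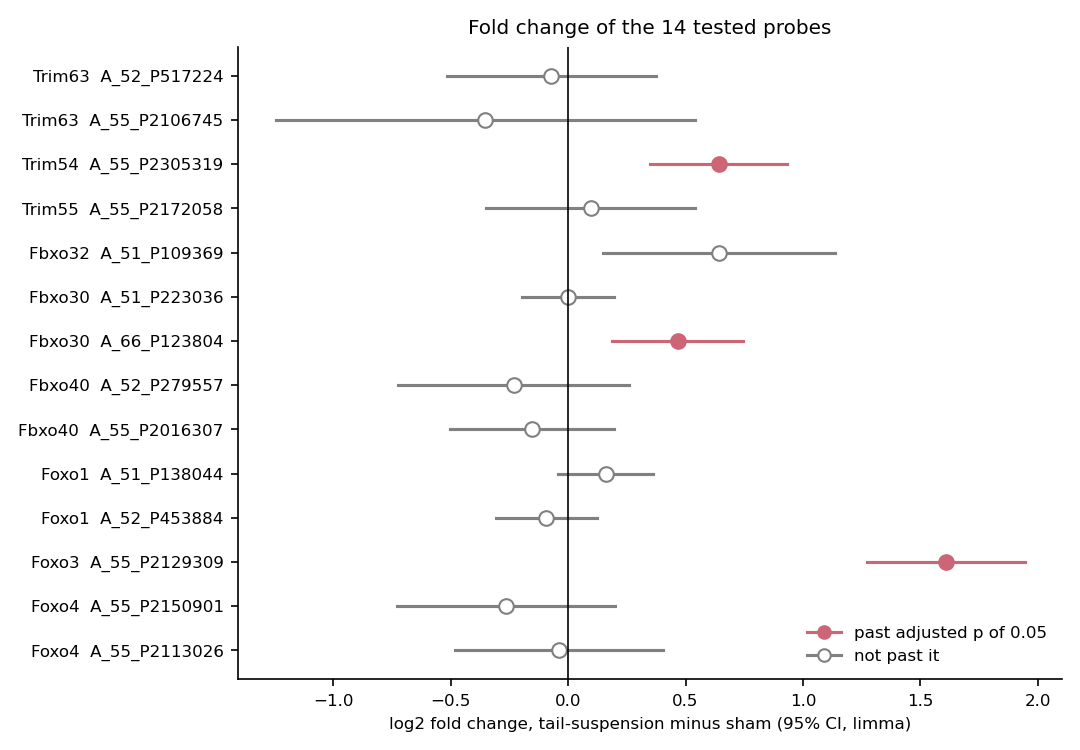
Log2 fold change, tail-suspension minus sham, of the 14 tested probes with its 95% confidence interval from limma. Filled red points passed an adjusted p of 0.05, which were the probe of Trim54, 1 of the Fbxo30 probes and the clone probe of Foxo3, and the widest interval was that of the second Trim63 probe, from -1.25 to 0.54.

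The starts of these genes were read from RefSeq promoters on GRCm38.p6, 250 bases before the start, for 7 of the 10 genes (8 promoters, 2 of them for Fbxo40). The FoxO core GTAAACA was searched on both strands, with TGTTTTG, the core of the insulin response element, and AGAACA, the short element of the glucocorticoid receptor. In the Trim63 promoter, GTAAACA lies at -194 and AGAACA at -200, both on the minus strand and directly side by side, so they read as 1 block in capitals below. Trim54 held AGAACA at -222 on the plus strand, and 1 of the Fbxo40 promoters held it at -176. Trim63 is at chr4:134314870-134315119 and Trim54 at chr5:31116362-31116611, both on the plus strand.
Trim63: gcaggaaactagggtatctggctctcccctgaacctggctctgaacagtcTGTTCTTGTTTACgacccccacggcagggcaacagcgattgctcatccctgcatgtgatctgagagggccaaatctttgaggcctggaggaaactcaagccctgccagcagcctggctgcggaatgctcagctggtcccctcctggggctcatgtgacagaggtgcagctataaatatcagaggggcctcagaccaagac
Trim54: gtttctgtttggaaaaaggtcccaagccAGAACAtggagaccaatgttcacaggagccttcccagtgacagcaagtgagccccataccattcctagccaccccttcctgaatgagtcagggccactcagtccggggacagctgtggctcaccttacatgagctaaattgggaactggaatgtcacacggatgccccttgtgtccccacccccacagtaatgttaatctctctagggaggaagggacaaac

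Of all 32851 promoters, each read with the 50 bases after the start as well, 3.65% held GTAAACA, 6.28% TGTTTTG and 19.0% AGAACA. Trim55, Fbxo32 and Foxo4 were not searched. Among the 7 genes searched, GTAAACA was found in the Trim63 promoter only, and TGTTTTG in 0 of them. A match is a description of letters and not a site.

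The genes around these 10 were read from 5 lists, 156 tested genes in all, of which 40 (25.6%) passed the test in either direction, against 21.2% of all tested genes. FoxO and glucocorticoid targets of the atrophy programme had the most calls. Of 35 tested, 15 rose and 2 fell (48.6% called), with a median log2 fold change of 0.30. These lists were drawn up with results of these arrays known, so the count is not independent evidence.

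In that list the largest changes were in Mt2, Fkbp5, Cdkn1a and Mt1, and what raised them was not tested. Mt2, a metallothionein that binds zinc, read 3.10, 2.83 and 3.14 in sham hearts and 7.16, 6.45 and 8.10 in tail-suspended hearts, a log2 fold change of 4.22 ± 0.386 (adjusted p = 0.00261, limma). Fkbp5, a co-chaperone of the glucocorticoid receptor, rose by 3.08 ± 0.242 (adjusted p = 0.00216). Cdkn1a, the cell cycle inhibitor p21, rose by 2.62 ± 0.288 and the metallothionein Mt1 by 1.61 ± 0.150. Groups that did not overlap were a condition for naming these 4 genes, and 46.4% of all tested genes met it. The receptor itself, Nr3c1, fell by 0.54 (SE 0.097, adjusted p = 0.0148), with 4.61, 4.60 and 4.49 in sham and 4.13, 4.05 and 3.90 in tail-suspended hearts. Klf15, a glucocorticoid-induced factor of amino acid catabolism, rose by 0.95 (adjusted p = 0.0284). Gadd45a, the other gene of the list that fell, had a log2 fold change of -1.02 (adjusted p = 0.0142, limma). Its call was lost without tail-suspension replicate 3 (0.0512).

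Autophagy and lysosome genes of the list, a grouping made after their values were seen, were split. Bnip3, a mitophagy receptor, rose by 1.19 ± 0.189, cathepsin L (Ctsl) by 0.93 ± 0.155 and Gabarapl1, a partner of the autophagosome membrane, by 0.83 ± 0.113, with adjusted p of 0.0107, 0.0123 and 0.00723 (limma). The autophagy receptor Sqstm1 rose by 0.92 (adjusted p = 0.0321), a call lost without any 1 of the sham arrays or tail-suspension replicate 3 (up to 0.0962). Map1lc3b, the LC3 protein, differed by 0.20 ± 0.141 (adjusted p = 0.339). Atg12, Atg4b, Becn1, Bnip3l, Ulk1, Ulk2 and Pik3c3 did not pass either, with log2 fold changes of -0.13, -0.04, -0.05, 0.07, -0.21, -0.13 and 0.28. Pdk4, the kinase that shuts off pyruvate dehydrogenase, read 4.81, 4.91 and 4.54 in sham hearts and 4.12, 5.89 and 4.35 in tail-suspended hearts (log2 fold change 0.03, adjusted p = 0.964). As for Trim63, the second tail-suspended heart lay above the sham hearts and the other two below. Of the 17 calls of this list, 10 held with each array left out in turn. The call of Klf15 was lost without sham replicate 1 or any 1 of the tail-suspension arrays, with adjusted p up to 0.084. That of Nr3c1 was lost without sham replicate 1, sham replicate 2 or tail-suspension replicate 3, up to 0.0626.

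The insulin, IGF1 and Akt genes that hold FoxO in check had 4 higher and 3 lower of 32 tested (21.9%, close to the share of all genes), with a median of 0.02. Pik3r1, the regulatory subunit of PI3-kinase, rose 2.15-fold, the IGF1 receptor Igf1r 1.72-fold and the insulin receptor Insr 1.62-fold (adjusted p of 0.00853, 0.0379 and 0.00824, limma). Foxo6, the remaining member of the FoxO family, read 1.05, 0.28 and 1.23 in sham hearts and -0.32, -0.46 and 0.11 in tail-suspended hearts and fell by 1.07 (SE 0.272, adjusted p = 0.0376). Akt1, Akt2, Igf1, Irs1 and Sgk1, a kinase that also phosphorylates FoxO, did not pass, with log2 fold changes of -0.12, 0.17, -0.20, -0.25 and 0.49. Akt2 was above its sham range and Igf1 below it on each tail-suspension array. Such a lack of overlap, in either direction, was found for 46.4% of all tested genes. The call of Igf1r held only without tail-suspension replicate 2 among the arrays left out, and that of Foxo6 only without sham replicate 2, each with adjusted p up to 0.107. Those of Pik3r1 and Insr held in all 6.

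Myostatin and activin signalling had 5 higher and 2 lower of 23 tested (30.4%), with a median of 0.08, while Mstn itself and its close relative Gdf11 could not be tested. Extracellular binders of myostatin were among those that rose. Fstl3, a follistatin-like protein that holds myostatin and activin, read -0.22, -0.21 and -0.23 in sham hearts and 1.27, 0.90 and 1.45 in tail-suspended hearts, a log2 fold change of 1.42 ± 0.146 (adjusted p = 0.00321, limma). Wfikkn2, which binds myostatin and Gdf11, rose by 0.95 ± 0.123 (adjusted p = 0.00616). Follistatin (Fst) differed by -0.04 ± 0.114 (adjusted p = 0.811) and the receptor Acvr2b by 0.34 ± 0.181 (adjusted p = 0.214). Smad7, an inhibitory Smad, rose by 0.51 (adjusted p = 0.0246) and the protease Furin by 0.49 (adjusted p = 0.0349), and the signal carrier Smad3 fell by 0.48 (adjusted p = 0.0472). Smad2, the other carrier, also fell, with a log2 fold change of -0.44 (adjusted p = 0.0248, limma). With 1 array left out, the calls of Fstl3 and Wfikkn2 held in all 6. That of Smad7 was lost without sham replicate 1, sham replicate 2 or tail-suspension replicate 3 (up to 0.0905), Furin held only without tail-suspension replicate 2 (up to 0.11) and Smad3 only without sham replicate 3 (up to 0.148). The Smad2 call held only without sham replicate 3 or tail-suspension replicate 2 (up to 0.0893).

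**Figure D3:**
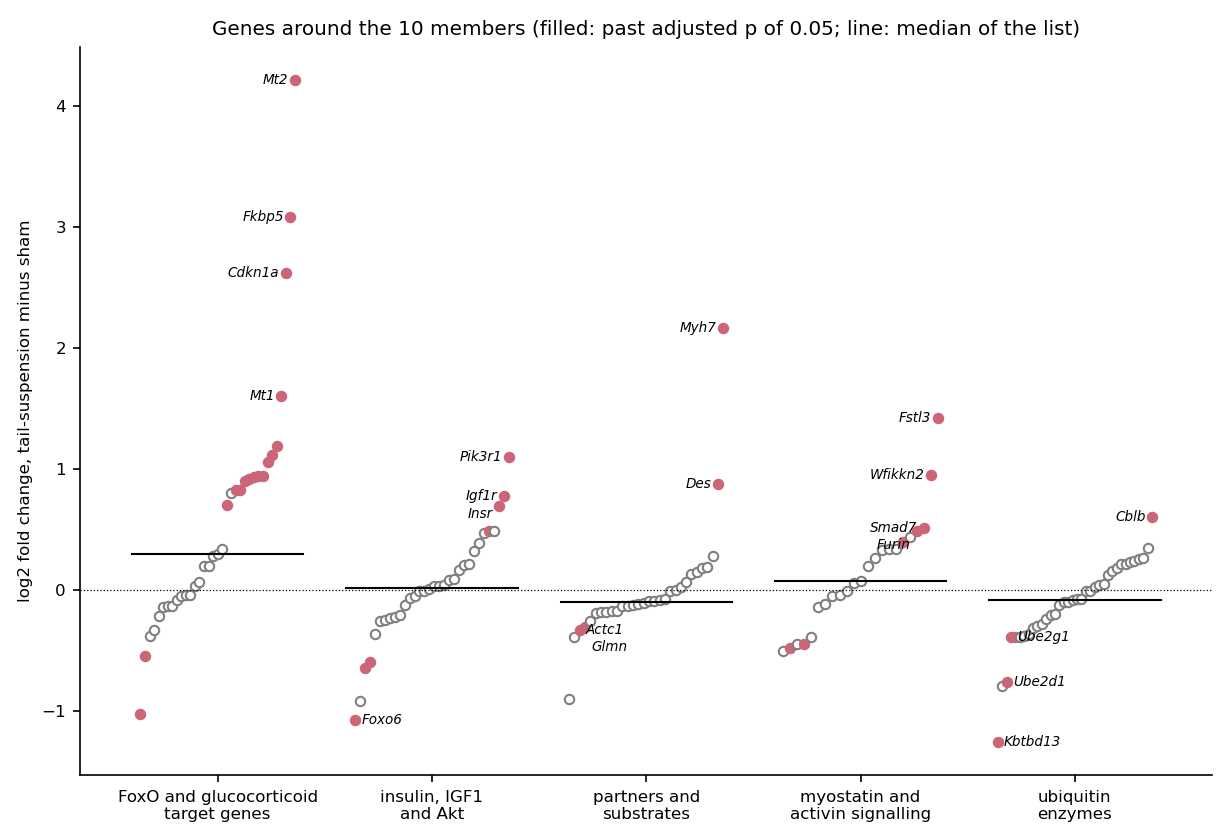
Log2 fold change, tail-suspension minus sham, of the tested genes in the 5 lists around the 10 members, each list sorted from lowest to highest along the horizontal axis. Filled red points passed an adjusted p of 0.05, the black line is the median of the list, and up to 4 of the largest calls carry names. The FoxO and glucocorticoid target list has the highest median, 0.30, and Mt2 at 4.22 is the highest point.

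Partners and substrates of the ligases gave 2 higher and 2 lower calls of 30 tested (13.3%), with a median of -0.10. Myh7, the slow myosin heavy chain that MuRF1 and MuRF3 can mark, read 6.85, 8.61 and 8.08 in sham hearts and 9.96, 10.0 and 10.0 in tail-suspended hearts, a log2 fold change of 2.17 ± 0.412 (adjusted p = 0.0178, limma). Desmin (Des), an intermediate filament that Trim32 can mark, rose by 0.88 ± 0.130 (adjusted p = 0.00883). Cardiac actin (Actc1) fell by 0.33 and Glmn, which binds the SCF subunit Rbx1, fell by 0.31 (adjusted p of 0.0364 and 0.0493). Mybpc3, Tnni3, Ttn, Tcap and Eif3f, reported targets or partners of MuRF1 or atrogin-1, did not pass, with log2 fold changes of -0.0022, -0.17, -0.13, 0.19 and 0.28. With 1 array left out, the call of Des held in all 6, that of Myh7 was lost without tail-suspension replicate 3 (0.058), and those of Actc1 and Glmn were lost each time (0.0582 to 0.119 and 0.0528 to 0.161).

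Ubiquitin enzymes that work with or beside the ligases gave 1 higher and 4 lower calls of 36 tested (13.9%), with a median of -0.08. Cblb, a ligase that marks Irs1 in unloaded skeletal muscle, rose by 0.61 ± 0.097 (adjusted p = 0.0107, limma). Kbtbd13, a muscle adaptor of a cullin-3 ligase, fell by 1.25 (adjusted p = 0.0236). The ubiquitin-conjugating enzymes Ube2d1 and Ube2g1 fell by 0.76 and 0.39, and Skp1a, the SCF subunit that holds F-box proteins, fell by 0.38 (adjusted p of 0.03, 0.0411 and 0.039). The SCF subunits Cul1 and Rbx1 differed by 0.05 and -0.07 (adjusted p of 0.689 and 0.601). With 1 array left out, the call of Cblb held in all 6 and that of Ube2g1 in none (0.0639 to 0.122). That of Kbtbd13 was lost without sham replicate 1, sham replicate 2 or tail-suspension replicate 3 (up to 0.0849). Skp1a held only without sham replicate 3 or tail-suspension replicate 2 (up to 0.131), and Ube2d1 only without sham replicate 1 or tail-suspension replicate 2 (up to 0.0903).

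Genes most like a member over the 6 arrays were listed as a description, without a test, among 17120 tested genes with a value on each array. Closest to Trim63 were ENSMUST00000086258, Maml1 and Leprel4 (Pearson r of 0.99454, 0.99148 and 0.98978). Closest to Fbxo32 were ENSMUST00000110814, Stard13 and ENSMUST00000108344 (0.99661, 0.99438 and 0.99226), and closest to Foxo1 were Tbrg1, Pou6f1 and Whamm (0.99736, 0.9931 and 0.99225).

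All 6 arrays lay on 1 slide. One row held the 3 sham arrays and tail-suspension replicate 1, and the other row held the remaining tail-suspension arrays, so a fit with the row as a term rests on 1 tail-suspended heart against 3 sham hearts. In that fit 497 of 28032 probes passed. Foxo3 passed (log2 fold change 1.71, adjusted p = 0.032), Trim54 (0.57, 0.17), Fbxo32 (0.46, 0.417) and Trim63 (-0.27, 0.595) did not, and of the 40 list genes only Fkbp5, Mt1, Mt2 and Fstl3 passed (0.032 to 0.0439). All 40 kept their direction.

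Markers of the labelled tissue were present. All 8 cardiomyocyte markers were tested and 1 fell, with a mean level over the list of 8.33 to 8.46 in sham and 8.30 to 8.35 in tail-suspended hearts. Of 10 skeletal muscle fibre markers, 7 were not tested, Myh1, Myh2, Myh4, Myod1 and Myog among them. The 3 tested, Pvalb, Tnnt3 and Tnni2, had log2 fold changes of 0.82, 0.62 and 0.25 that did not pass (adjusted p of 0.333, 0.326 and 0.285), with a mean level of -1.86 to -1.32 in sham and -1.26 to -0.55 in tail-suspended hearts, and their part in the results was not tested. Endothelial markers moved with the groups: of 7 tested, 1 rose and 3 fell, with a mean level of 2.69 to 2.79 in sham and 2.37 to 2.62 in tail-suspended hearts, and their part in the results was not tested. The adipocyte markers tested (2 of 5) had a mean level of 0.51 to 2.62 in sham and 2.51 to 4.30 in tail-suspended hearts, with 0 past the test. Cfd had a log2 fold change of 2.90 (adjusted p = 0.149, limma) and Fabp4 of 0.22 (0.122), and their part in the results was not tested. Pairs of arrays correlated at 0.9914 to 0.9957 within groups and 0.9781 to 0.984 across them.

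**Figure D4:**
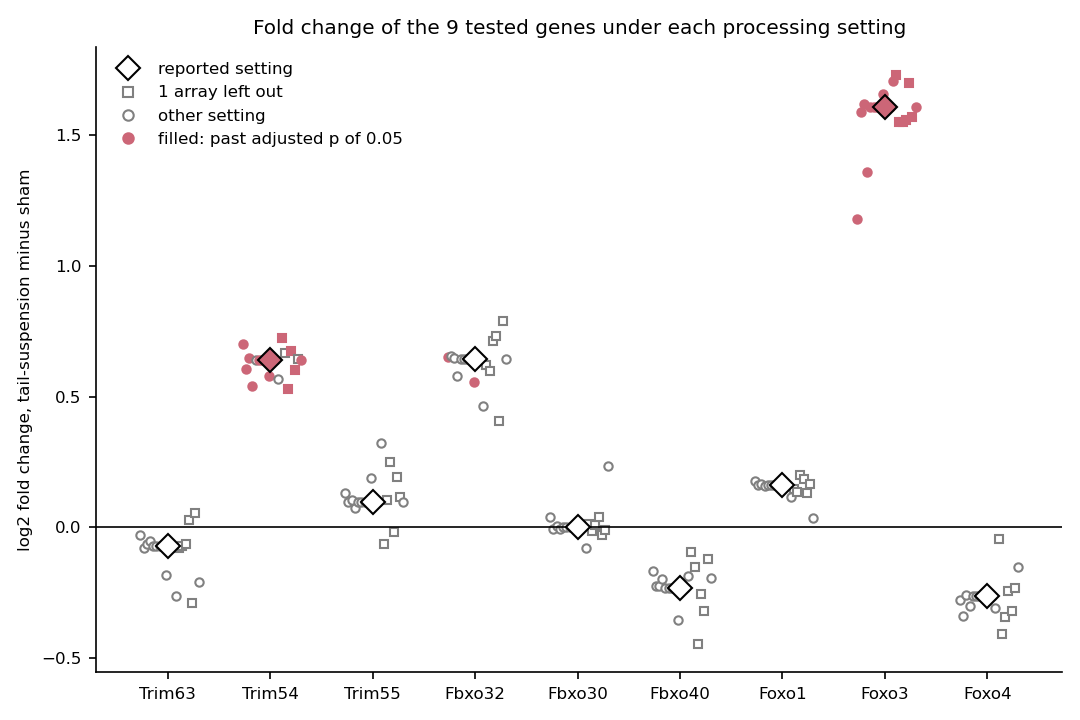
Log2 fold change, tail-suspension minus sham, of the 9 tested genes by brightest probe under the reported setting (diamond), with 1 array left out (squares) and under other settings (circles), filled red where the adjusted p was under 0.05. The Foxo3 points lie between 1.18 and 1.73 and are all filled, those of Fbxo32 lie between 0.41 and 0.79 with 3 filled, and those of Trim63 lie on both sides of 0.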

How the data were processed

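Total RNA of 3 sham and 3 tail-suspended mouse hearts was labelled with Cy3 and hybridised to 1-colour Agilent arrays. Per the file headers and labels, the authors extracted the scans with Agilent Feature Extraction 10.7.1.1 and deposited processed intensity values after background correction. The authors also deposited log2 values of the same 6 arrays, whose sorted columns were identical to within 0.000857, and these served as an alternative. The log2 processed intensity was scaled by subtracting the log2 of the array's own 75th percentile (301.6 to 376.3). Control spots and outlier spots were left out, and spots of a probe were averaged. Tests used limma 3.58.1 in R 4.3.3, without covariates, on the 28032 probes detected throughout either group, at a Benjamini-Hochberg adjusted p of 0.05. Between 50.9% and 53.4% of probes were well above background on an array, none was saturated, and the number of arrays limits the precision. Each gene took the value of its tested probe with the highest mean level. Only the limma fit was tried on simulated normal values, not the scaling, the filter or the choice of probe.

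The 10 genes, the 5 pathway lists, the marker lists and the tests were chosen with earlier results of these data known. Besides the members, the text names up to 4 calls of each pathway list with the largest change and no overlap of the groups, and fixed partners and inhibitors of the members. From the FoxO and glucocorticoid target list it also names Nr3c1, Klf15 and, chosen after their values were seen, Gadd45a and further autophagy genes. Other calls of that list are not all named. Smad2, of the myostatin and activin list, was also named after its value was seen. The methods' t-test is the unadjusted test for 2 groups of the study. Promoters came from RefSeq on GRCm38.p6.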

Additional observations from a re-analysis of the deposited data

How the results depend on the processing

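Of the 10 genes, 2 were higher past the threshold, and 1 was with no filter on dim probes, with the methods' t-test (adjusted), with the slide row as a block or with a 2-fold minimum. The 3 member probes past it became 1 under the same 4 settings. With 1 array left out the ranges were 1 to 2 genes and 1 to 3 probes. No gene was lower under any setting. The 40 calls in the pathway lists became 17 with no filter, 20 by the methods' t-test after adjustment and 69 before it, 4 with the slide row as a block, 13 with a 2-fold minimum and 19 to 38 with 1 array left out. The cause was not tested.

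Samples with the same replicate number did not deviate together (correlations of -0.02, -0.0176 and 0.0495). With 3 samples in a group this cannot exclude a pairing, and the main fit used none. With the replicate block, 2 member genes, 2 member probes and 29 list genes passed, and the probe of Fbxo30 that spans 3704 bases did not (adjusted p = 0.0929).

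Signs turned only for values near 0. With 1 array left out, Trim63 ranged from -0.292 to 0.0523, Trim55 from -0.0668 to 0.25, Fbxo30 from -0.0295 to 0.0396 and the Foxo4 probe A_55_P2113026 from -0.15 to 0.15. Fbxo30 was 0.0371 with normexp, 0.0058 with the percentile over detected probes and 0.23 as the mean of its probes, and that Foxo4 probe was 0.11 with the slide row. Trim54, Fbxo32, Fbxo40, Foxo1, Foxo3 and Foxo4 by brightest probe kept their direction under all 19 alternatives. The dim probes of Mstn, Foxo3 and Foxo4 limit what can be said of these genes.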
